A study of Homo sapiens with 108 samples.

Results

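The 12 SLAM-seq libraries labelled as ZFP36L1 knockdowns were compared with the 12 libraries labelled NT, for a non-targeting hairpin, so that 24 libraries entered and 84 libraries of other knockdowns made up the rest of the series. They were chosen by their titles alone and matched by chase time. The study asked whether depleting single zinc finger proteins changed mRNA half-lives, and 7 other knockdowns (BRCA1, CNOT4, MAZ, PHF7, ZMAT3, ZMAT5 and ZNF706) were measured in the same way. All cultures were HEK293T, a transformed human embryonic kidney line, transduced as a pool with lentivirus carrying a single hairpin and selected with puromycin. In both arms 10 µM 4-thiouridine (4SU) was given over 24 h, with fresh medium each 8 h, after which 1 mM uridine replaced it and cells were collected at 0, 2, 4 and 8 h, in 3 biological replicates each. The NT arm therefore carried the virus, the selection, the 4SU and the uridine as well, and by its label differed in the hairpin. The libraries of the 2 arms also differed in read and mapping properties, which are given below.

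ZFP36L1 is a CCCH zinc finger protein of the tristetraprolin family. Its members bind AU-rich elements in 3′ UTRs and recruit the CCR4-NOT deadenylase, so that the bound mRNA loses its poly(A) tail and is degraded, and many mRNAs of inducible regulators carry such elements. In SLAM-seq, 4SU built into RNA is alkylated and read as C in place of T, so the share of T positions read as C, here called the T>C rate, falls over a chase as labelled mRNA is lost.

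The hairpin target listed for ZFP36L1 in the study's supplementary hairpin list is shown with the non-targeting hairpin of that list. Whether these clones made the SLAM-seq libraries is not given in the sources used here. Capitals mark the bases that pair with the seed of the guide strand.
ZFP36L1 hairpin target: gggttgcctgctgGACAGAAa
non-targeting hairpin: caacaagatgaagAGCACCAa
The target lies at chr14:68790434-68790454 on the minus strand (hg38), in coding exon 2 of ZFP36L1, and inside the interval of 2830 bases that was counted for the gene (chr14:68787661-68790490). It matched the transcripts of 1 gene in GENCODE exactly, and the non-targeting hairpin matched those of 0 genes. AU-rich windows of the counted 3′ UTRs are shown for mRNAs whose level or label is described further on, with each TATTTAT heptamer in capitals (hg38 sequence of the coding strand).
ZFP36L1, chr14:68788333-68788357, minus strand: aacgTATTTATtgccaaactatgct
ZFP36L2, chr2:43223445-43223469, minus strand: aactTATTTATtatcttgtgaaaag
MCL1, chr1:150575804-150575828, minus strand: cagaTATTTATatcaattcctacag
IER5, chr1:181092450-181092474, plus strand: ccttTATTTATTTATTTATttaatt
DUSP1, chr5:172768640-172768664, minus strand: tcctTATTTATttaacttcacccga
SETD1B, chr12:121831306-121831330, plus strand: agcaTATTTATtttcggagggagca

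The libraries of the 2 arms differed in more than gene levels. Reads in counted 3′ UTRs numbered 4555633 to 12048936 in libraries labelled ZFP36L1 and 8206060 to 13359455 in NT libraries, yet 12982 to 14490 genes were detected in the first and 11137 to 11825 in NT. A read covered 25.9 to 33.0 T positions in libraries labelled ZFP36L1 and 37.1 to 37.8 in NT, and 9.21 to 12.4% of reads were multimapped against 6.66 to 6.91% in NT, with no overlap in either measure (exact permutation test within chase times, two-sided p = 1.25e-05, the smallest possible). Genes above 5 CPM (read count scaled to the library's size) without a single conversion numbered 5 to 154 in libraries labelled ZFP36L1 and 246 to 1787 in NT. Read counts also scattered more between NT replicates. The chi-square per degree of freedom between replicates was 65.0 to 71.4 in NT groups and 5.09 to 25.3 in groups labelled ZFP36L1, a measure that also grows with read number. The level fit used a single spread per gene for both arms. Among the other knockdowns, the CNOT4 libraries had 27.7 to 34.0 T positions a read, and each library of the remaining 6 arms had at least 35.7. The CNOT4 libraries of 8 h, whose file headers read pulse-chase where those of 0 to 4 h read chase, had 32.5 to 34.0 T positions a read and 5.82 to 5.91% multimapped reads, against 9.34 to 11.9% in CNOT4 of 0 to 4 h. The CNOT4 libraries of 0 to 4 h, close to those labelled ZFP36L1 in both measures, were used as an added reference, chosen after values were seen. How far these library properties account for the gene differences below was not tested. Of 11 mRNAs known from HEK293T cells, 10 averaged over 1 CPM. Of 24 markers of other cell types, 4 were high enough to be tested, with a median log2 change of 1.51 against NT and 1.2 against the other 7 knockdowns. None passed against NT (adjusted p from 0.0741 to 0.466, edgeR's quasi-likelihood test, Benjamini-Hochberg). Against the other 7, 2 were higher, the apolipoprotein APOA1 and the globin HBA1, beside 24.2% of all mRNAs. Markers could pass the count filter through 1 arm alone, so these medians are not separate evidence of a rise. mRNAs of any class at 1 to 5 CPM had medians of 0.99 to 1.28 relative to NT in single libraries labelled ZFP36L1. APOA1 averaged 1.17 CPM in libraries labelled ZFP36L1 and 0.159 CPM in NT, HBA1 4.40 and 1.45 CPM, and COL1A1 11.8 and 16.2 CPM. Their part in the differences below was not tested.

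The targeted mRNA was not lower in the libraries that carry its name. ZFP36L1 mRNA ranged from 45.3 to 88.7 normalised CPM in libraries labelled ZFP36L1, with a median of 61.2, and from 6.99 to 64.0 in NT libraries, with a median of 41.5. The ranges overlapped, with the NT libraries reaching lower and spreading more widely. The means were 62.6 ± 12.4 and 36.5 ± 16.9 CPM (SD, n = 12 each), and the log2 change of 0.80 (SE 0.21) passed the test (edgeR, adjusted p = 0.00233). By chase time it was 0.63 at 0 h, 1.45 at 2 h, 0.69 at 4 h and 1.05 at 8 h. The call was lost in a fit of the 0 h libraries alone (0.60, adjusted p = 0.244) and without replicate 1 of every group (0.59, adjusted p = 0.0731). Against the other 7 knockdowns together it was 0.61 (adjusted p = 4.1e-05), but against the CNOT4 libraries of 0 to 4 h it was -1.04 (adjusted p = 0.000278). Scaled over all arms, the mean was 62.9 CPM in the arm labelled ZFP36L1, 126 CPM in CNOT4, 54.6 CPM in PHF7, 20.4 CPM in ZMAT5 and 36.7 CPM in NT. The study's methods state that the SLAM-seq cells were checked for knockdown by qPCR, and the higher mRNA level here goes the other way. A level measured in 3′ UTR reads cannot show whether the protein was depleted, and the arm is called by its label throughout.

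**Figure D1:**
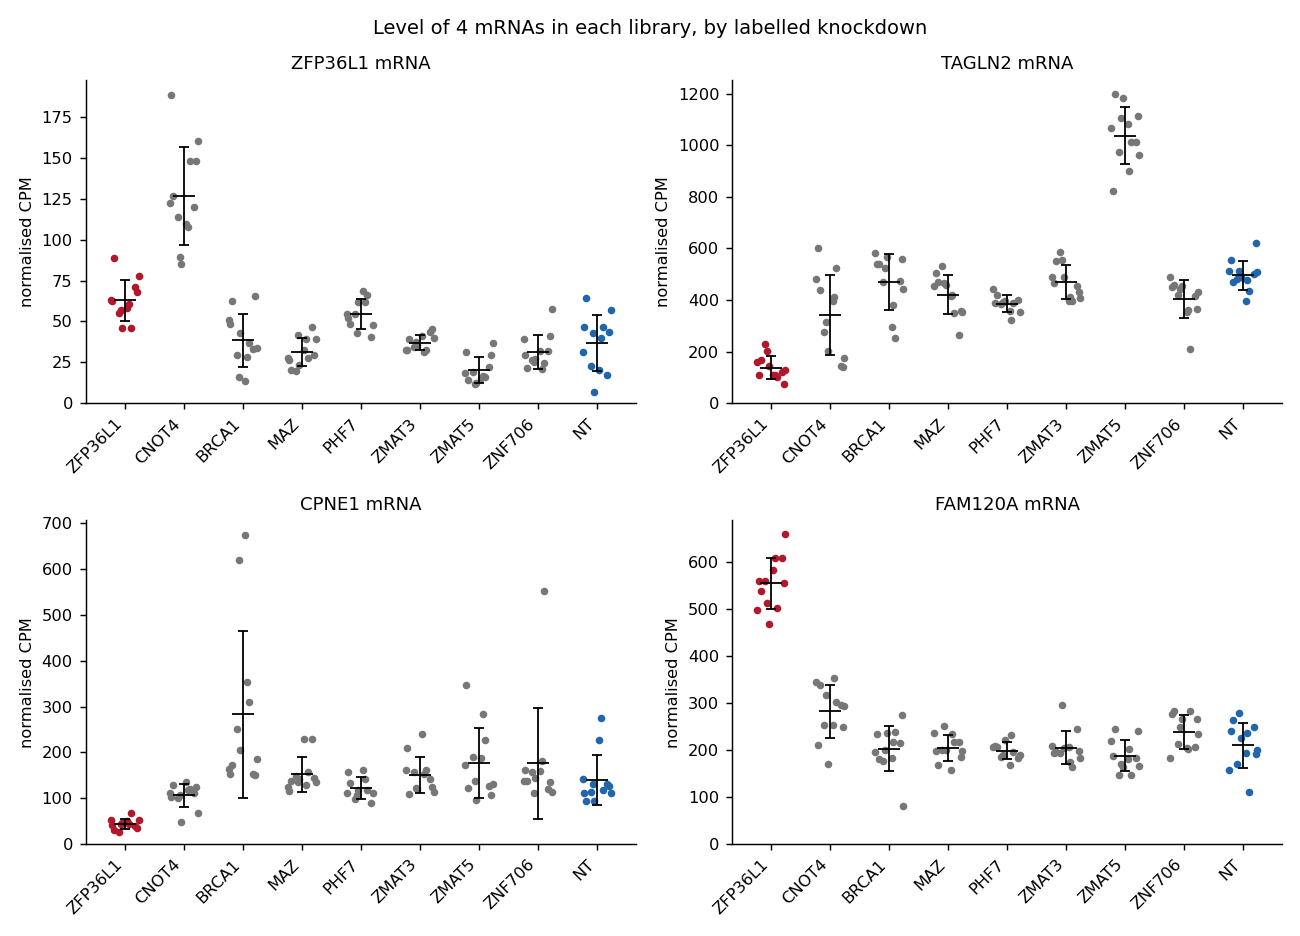
Normalised CPM (vertical axis, from 0) of 4 mRNAs in each library of each knockdown (horizontal axis); points run from 0 to 8 h within an arm, black bars are the mean ± SD over its libraries, and 1 PHF7 library with too few reads was left out. ZFP36L1 mRNA was highest in CNOT4 libraries, while TAGLN2 and CPNE1 had their lowest mean and FAM120A its highest in the arm labelled ZFP36L1; the 8 h CNOT4 libraries lie within the ZFP36L1 range for TAGLN2.

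Against NT, 2877 of 13253 mRNAs tested rose (21.7%) and 2419 fell (18.3%), at an adjusted p under 0.05 and a fold over 1.2 (edgeR). All 12 libraries labelled ZFP36L1 lay above all 12 NT libraries for 488 mRNAs (3.68%) and below them for 490 (3.70%). The median over all mRNAs was 0.15 on the log2 scale. The count filter could be passed through the libraries of 1 arm alone, so some mRNAs may have entered only where they were high. With a filter of over 5 CPM in at least 12 libraries, 2187 mRNAs rose and 2473 fell, so the excess of rises depended on the filter. Over 100 CPM the median in single libraries labelled ZFP36L1 was -0.18 to -0.06 relative to NT. No mRNA had a difference that depended on chase time after adjustment (edgeR interaction test, lowest adjusted p = 0.212, with 1161 of 13253, or 8.76%, at an unadjusted p under 0.05), and 0 to 4 were called when single libraries were left out. Against the other 7 knockdowns, 3734 of 15411 mRNAs were higher (24.2%) and 2581 lower (16.7%). Of the calls against NT, 2132 of the rises (74.1%) and 1964 of the falls (81.2%) were also called against those 7. Against the CNOT4 libraries of 0 to 4 h the counts were smaller, with 244 of 12619 higher (1.93%) and 159 lower (1.26%), or 681 (5.21%) and 551 (4.22%) of 13068 without the sparse CNOT4 2 h replicate 3. The same 9 libraries labelled ZFP36L1 gave 2367 rises (18.1%) and 2117 falls (16.2%) of 13055 against NT of 0 to 4 h. CNOT4 of 0 to 4 h over those NT libraries gave 1190 rises (9.17%) and 1294 falls (9.97%) of 12978.

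The largest rises against NT included 3 mRNAs of ribosomal proteins and 1 of an initiation factor subunit, beside others without a role in translation. RPS12, a protein of the small ribosomal subunit, ranged from 760.5 to 1774 CPM in libraries labelled ZFP36L1 (median 1176) and from 34.2 to 77.2 CPM in NT (median 41.2). The groups were far apart, and the log2 change was 4.73 (SE 0.15, edgeR adjusted p = 1.17e-23). RPL10A, of the large subunit, averaged 1071 ± 164 CPM against 135.5 ± 25.7 in NT (SD, n = 12 each), a log2 change of 2.97, and RPL11 590.3 ± 105 against 92.4 ± 12.7, a log2 change of 2.66. EIF3K, a subunit of the translation initiation factor eIF3, rose by 3.02 on the log2 scale, PPAN, a ribosome biogenesis factor, by 3.16, and the depalmitoylase ABHD17A by 4.08. HES4, a transcriptional repressor downstream of Notch, rose by 3.09, and ERCC6L2, a DNA repair helicase, by 2.95. ENSG00000258677 averaged 46.1 CPM against 0.72 CPM in NT. Against CNOT4 of 0 to 4 h, ABHD17A, PPAN, EIF3K and ERCC6L2 changed by 0.03, 0.24, 0.49 and -0.02 on the log2 scale and did not pass the test, whereas HES4 was higher by 0.89 (adjusted p = 0.039).

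The largest falls included the mitochondrial ATP synthase gene MT-ATP8, whose counted interval is only 2 bases long and held 45.1 to 169.6 CPM in libraries labelled ZFP36L1 (median 122) and 963.0 to 1937 CPM in NT (median 1566). Its log2 change was -3.81 (SE 0.14, adjusted p = 4.22e-22), with no overlap. BAX, an effector of mitochondrial apoptosis, ranged from 6.23 to 27.5 CPM against 150.4 to 247 CPM in NT, a log2 change of -3.44 (SE 0.16). HMOX1, the stress-inducible heme oxygenase, averaged 17.4 ± 9.91 CPM against 193 ± 63.3 CPM in NT (SD, n = 12 each), a log2 change of -3.48. The remaining falls were of MARCKSL1, an actin regulator (-2.53), the ribosome biogenesis factor RRS1 (-2.43), the amino acid transporter SLC7A5 (-2.39), the homeobox factor HOXB9 (-2.38) and AKT1S1, an inhibitor of mTORC1 (-2.35). Against CNOT4 of 0 to 4 h the signs turned, with 0.84 for BAX, 0.26 for MARCKSL1, 0.67 for RRS1, 1.13 for SLC7A5, 0.13 for HOXB9 and 0.22 for AKT1S1, of which RRS1 and SLC7A5 alone passed the test as higher (adjusted p = 0.039 and 0.024). MT-ATP8 (-0.42) and HMOX1 (-1.52) kept their sign but were not called. Without the sparse CNOT4 2 h replicate 3, HMOX1 was called lower (-1.75, adjusted p = 2.97e-05). CNOT4 libraries of 0 to 4 h, set against the same NT libraries, had changes of -4.20 for BAX, -2.81 for MARCKSL1 and 4.36 for RPS12. Both comparisons share the NT libraries.

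**Figure D2:**
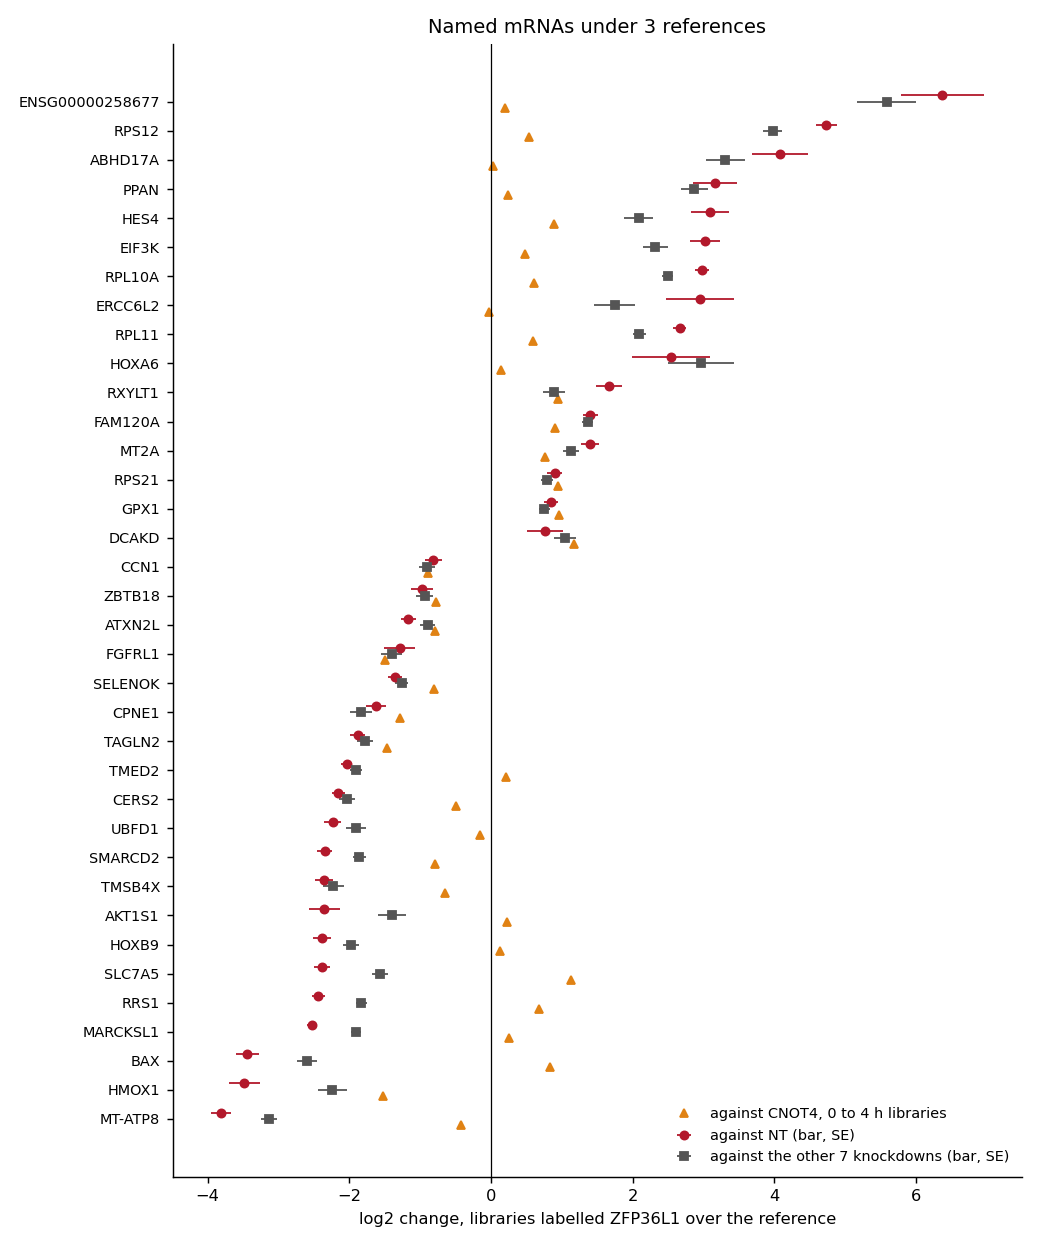
Log2 change (horizontal axis) of named mRNAs (rows) in libraries labelled ZFP36L1 over NT (circles, bar SE), over the other 7 knockdowns (squares, bar SE) and over CNOT4 libraries of 0 to 4 h (triangles). Changes of over 2 against NT mostly lie closer to 0 against CNOT4, while FAM120A, TAGLN2, CPNE1 and FGFRL1 keep a similar place under each reference.

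A smaller set stood apart under all 3 references: 89 mRNAs were higher and 48 lower against NT, against the other 7 knockdowns and against CNOT4 of 0 to 4 h, a rule chosen after values were seen. These were 3.09% of the rises and 1.98% of the falls against NT. Without the sparse CNOT4 2 h replicate 3 the counts were 212 (7.37%) and 140 (5.79%), which included all 89 and all 48. The 3 comparisons are not separate, since CNOT4 is among the other 7 knockdowns and each uses libraries labelled ZFP36L1. TAGLN2, an actin-bundling protein of the calponin family, ranged from 76.4 to 231 CPM in libraries labelled ZFP36L1 (median 125) and from 396 to 619.5 CPM in NT (median 495). The groups did not overlap, and the log2 change was -1.88 against NT (SE 0.11, adjusted p = 4.05e-16), -1.78 against the other 7 and -1.47 against CNOT4. Scaled over all arms, however, TAGLN2 was at 143, 142 and 177 CPM in the CNOT4 libraries of 8 h and at 201 CPM in CNOT4 2 h replicate 3, inside the range of the libraries labelled ZFP36L1 (76.7 to 231 CPM). The other 8 CNOT4 libraries had 278 to 602 CPM. CPNE1, a calcium-dependent phospholipid-binding protein, averaged 44.1 ± 10.8 CPM against 139 ± 55.2 CPM in NT (SD, n = 12 each), with changes of -1.62, -1.83 and -1.29. FGFRL1, a decoy-like member of the FGF receptor family, averaged 17.0 ± 3.05 against 42.4 ± 16.1 CPM in NT, with -1.29, -1.40 and -1.49. The selenoprotein SELENOK changed by -1.36 against NT, the chromatin remodelling subunit SMARCD2 by -2.35, the matricellular protein CCN1 by -0.81, the ataxin-2 relative ATXN2L by -1.17 and the repressor ZBTB18 by -0.98.

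Among the mRNAs that were higher under all 3 references was FAM120A, an RNA-binding scaffold protein. It ranged from 463.9 to 658 CPM in libraries labelled ZFP36L1 (median 555) and from 110.3 to 279 CPM in NT (median 211), without overlap. Its log2 change was 1.40 against NT (SE 0.10, adjusted p = 2.84e-13), 1.36 against the other 7 and 0.91 against CNOT4. RXYLT1, a Golgi xylosyltransferase that acts on alpha-dystroglycan, averaged 78.2 ± 8.07 CPM against 24.8 ± 8.90 CPM in NT, with changes of 1.67, 0.89 and 0.95. The antioxidant enzyme GPX1 changed by 0.85 against NT and 0.96 against CNOT4, the metallothionein MT2A by 1.40 and 0.76, and the ribosomal protein mRNA RPS21 by 0.90 and 0.94. DCAKD changed by 0.76 against NT and 1.17 against CNOT4.

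Ribosomal protein mRNAs formed the group that differed most widely. Of 79 measured members, 71 rose and 0 fell against NT, beside 21.7% and 18.3% of all mRNAs. Their median log2 change was 1.19, and in single libraries labelled ZFP36L1 it lay between 0.92 and 1.45, against -0.08 to 0.08 in single NT libraries. For 58 members all 12 libraries labelled ZFP36L1 lay above all NT libraries. The 8 members that were not called included RPL5 (log2 change -0.15), RPL22 (-0.11), RPL27 (0.01) and RPL34 (0.04). RPS6 averaged 4279 ± 600 CPM against 2697 ± 242 CPM in NT (SD, n = 12 each), a log2 change of 0.66, and RPLP0, a stalk protein, 2272 ± 480 against 724 ± 97.5 CPM, a log2 change of 1.63.

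The median change over all mRNAs was higher where the terminal exon was short, and in 34 of the 79 members over 20% of reads were multimapped. The median over all mRNAs was 0.70 where the terminal exon was under 200 bases, 0.42 from 200 to under 500, 0.04 from 500 to under 1000 and 0.14 at 2000 bases or longer. From 1000 to under 2000 bases it was 0.05 to 0.18 in single libraries labelled ZFP36L1. Ribosomal protein mRNAs with a terminal exon under 200 bases (33) had a median of 1.10 and those with longer ones (46) a median of 1.2. Against CNOT4 of 0 to 4 h, 37 of the 79 were higher and 0 lower, with a median of 0.41, beside 0.09 for all mRNAs. CNOT4 of 0 to 4 h over NT gave a ribosomal median of 0.86. The CNOT4 libraries of 8 h stood apart, with RPS12 at 43.0, 20.2 and 51.6 CPM, against 603 to 1188 CPM in CNOT4 of 0 to 4 h and 34.5 to 77.2 CPM in NT, and RPL10A at 268 to 296 CPM, against 352 to 885 CPM in CNOT4 of 0 to 4 h (scaled over all arms). With multimapped reads subtracted, the ribosomal median against NT was 1.07. Beyond this, the part of exon length and mapping in these values was not tested.

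**Figure D3:**
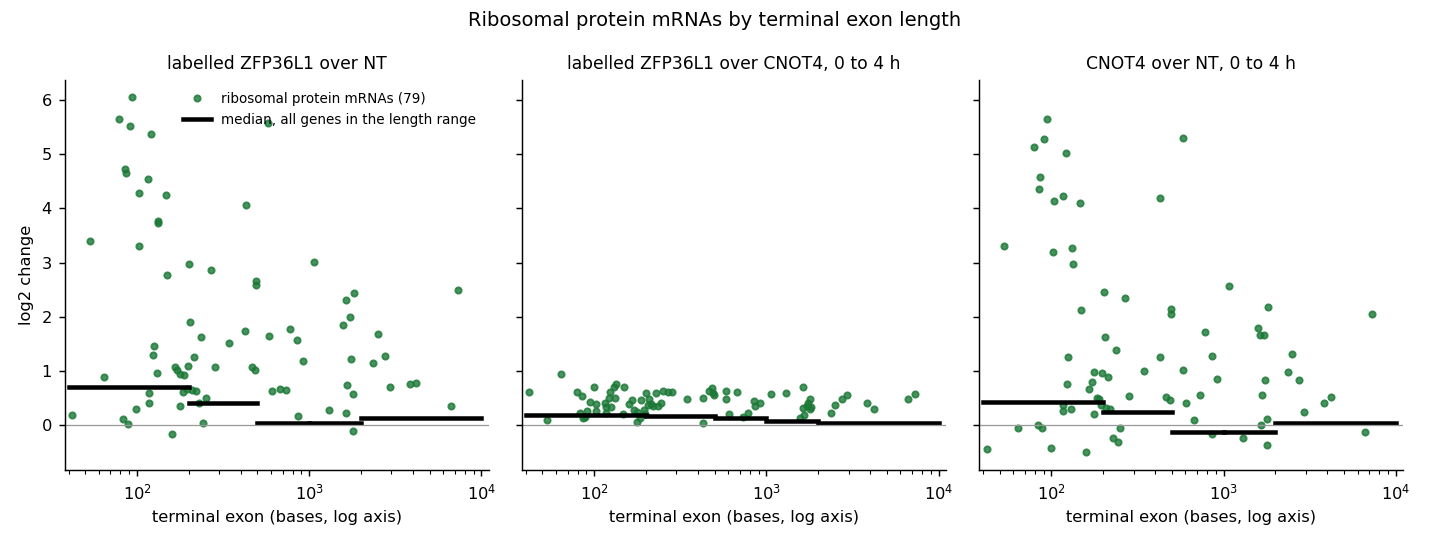
Log2 change (vertical axis) of 79 ribosomal protein mRNAs (points) against the length of the terminal exon in bases (log axis), for libraries labelled ZFP36L1 over NT (left), the same over CNOT4 of 0 to 4 h (middle) and CNOT4 over NT (right); black lines are the median of all mRNAs in a length range. Points reach over 5 in the left and right panels and lie under 1 in the middle one.

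Of 71 nuclear-encoded respiratory chain and ATP synthase mRNAs, 43 rose and 11 fell, beside 21.7% and 18.3% of all mRNAs. The same shares of all mRNAs stand beside the lists that follow. The respiratory chain median was 0.32, with COX7C at a log2 change of 1.36, NDUFB11 at 1.28 and ATP5F1B, the catalytic beta subunit of ATP synthase, at 0.91. Among 34 G2/M mRNAs, 5 rose and 18 fell, with a median of -0.30. The centromeric histone CENPA fell by 1.28 and cyclin A2 (CCNA2) by 0.76 on the log2 scale, whereas securin (PTTG1) rose by 1.41. The list median was -0.01 against CNOT4. Of 35 G1/S mRNAs, 7 rose (20.0%) and 13 fell (37.1%), with a median of -0.16, which was -0.01 with a replicate block and 0.04 against CNOT4. Those that fell included the uracil glycosylase UNG (-1.38) and the replicative helicase subunit MCM2 (-0.73).

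Over all mRNAs, 21.7% rose and 18.3% fell, which stands beside each count in this paragraph. Of 31 mRNAs of the integrated stress and unfolded protein responses, 5 rose and 14 fell, with a median of -0.39, against 0.03 with CNOT4 as the reference. The chaperone HSP90B1 (-1.02) and the disulfide isomerase PDIA4 (-1.07) fell, and PHGDH, which opens serine synthesis, rose (1.37). Of 20 heat shock mRNAs, 5 rose and 9 fell, with a median of -0.36, against 0.19 with CNOT4. HSPD1, the mitochondrial chaperonin, averaged 888 ± 56.1 CPM against 1809 ± 141 CPM in NT (SD, n = 12 each). Of 24 cholesterol synthesis mRNAs, 3 rose and 10 fell, among them SQLE (-1.56) and HMGCS1 (-0.91). Of 21 interferon-stimulated mRNAs, 6 rose (28.6%) and 1 fell (4.76%), with a median of 0.60 against NT and -0.31 against CNOT4. CNOT4 of 0 to 4 h over NT gave 1.36. Only 6 members of this list were above 5 CPM in each of the 24 libraries. mRNAs of any class at 1 to 5 CPM had medians of 0.99 to 1.28 relative to NT in single libraries labelled ZFP36L1.

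Immediate early mRNAs, which include transcription factors and feedback regulators with short half-lives, had a median of -0.53. Of 36 tested, 3 rose and 14 fell, beside 21.7% and 18.3% of all mRNAs. JUN, an AP-1 subunit, ranged from 229 to 412 CPM in libraries labelled ZFP36L1 (median 302) and from 504 to 859 CPM in NT (median 600.5), without overlap, and its log2 change was -1.03 (SE 0.07, adjusted p = 1.66e-14). MCL1, an anti-apoptotic BCL2 relative, averaged 243 ± 16.9 CPM against 504 ± 80.4 CPM in NT (SD, n = 12 each), a log2 change of -1.05. JUND changed by -1.75, and ID2, an inhibitor of helix-loop-helix factors, rose by 1.74. Against CNOT4, JUN (0.11) and MCL1 (-0.04) were not called, whereas IER5, a regulator of heat shock factor activity, changed by -0.65 (adjusted p = 0.0051) and by -0.64 against NT. The list median was -0.64 against CNOT4, with 1 higher and 4 lower. Without replicate 2 of every group the median against NT was -0.26. In single libraries labelled ZFP36L1 it was -0.10 to 0.01 at 0 h, inside the range of NT libraries of 0 h (-0.18 to 0.16). At 2 to 8 h it was -0.61 to -0.29. A fit of the 0 h libraries alone, with its own filter, gave a median of -0.38.

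**Figure D4:**
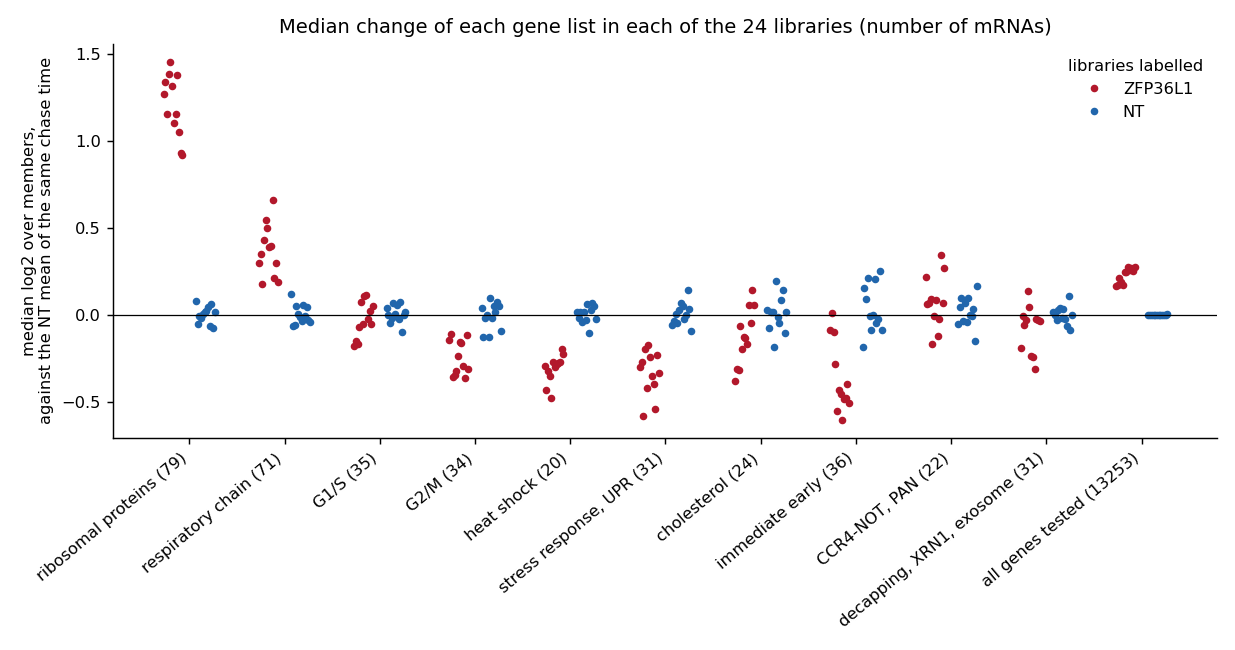
Median log2 value over the members of each gene list (vertical axis), relative to the NT mean of the same chase time, in each of the 12 libraries labelled ZFP36L1 (left of each pair) and the 12 NT libraries (right); the number of mRNAs stands in brackets. Ribosomal protein medians lie between 0.92 and 1.45 in libraries labelled ZFP36L1, apart from all NT values.

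The mRNAs of proteins that act with ZFP36L1 were mixed. Of 12 ZFP36 family and AU-rich element binders, 5 rose and 5 fell. ZFP36L2, the close paralogue, averaged 78.7 ± 10.1 CPM in libraries labelled ZFP36L1 against 132 ± 45.2 CPM in NT (SD, n = 12 each), and its log2 change was -0.71 against NT (SE 0.13, adjusted p = 2.57e-05) and 0.01 against CNOT4. KHSRP, which promotes decay of AU-rich mRNAs, changed by 1.01, and ELAVL1, which binds and stabilises many of them, by -0.73. Of 22 CCR4-NOT and PAN deadenylase mRNAs, 3 rose (13.6%) and 4 fell (18.2%), beside 21.7% and 18.3% of all mRNAs, with the catalytic subunits CNOT8 at -1.26 and CNOT6 at -0.92 and the E3 ligase subunit CNOT4 at 0.56. Of 31 decapping, XRN1 and exosome mRNAs, 6 rose and 13 fell, with LSM5 at -1.57 and the exosome subunit EXOSC2 at 0.91. The cytoplasmic exonuclease XRN1 itself averaged 32.8 ± 9.19 CPM against 30.6 ± 15.0 CPM in NT.

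Levels were also compared by the AU-rich element that the family binds. The median log2 change was 0.19 for 8143 mRNAs with no TATTTAT heptamer in the counted 3′ UTR, 0.05 with 1, 0.04 with 2, 0.18 with 3 and 0.28 with 4 or more (555 mRNAs), beside 0.15 for all. Over 20 CPM these medians were -0.03, -0.12, -0.09, 0.02 and 0.15, while mRNAs of any class under 1 CPM had a median of 3.00 and those of 1 to 5 CPM of 1.01. Matches were counted on the coding strand only and may overlap. Of 32 mRNAs known in the field as ZFP36 family targets, 5 rose and 8 fell, beside 21.7% and 18.3% of all mRNAs. Their median of 0.29 moved to as little as 0.03 without NT 0 h replicate 2 and to -0.24 among genes over 5 CPM. Against CNOT4 of 0 to 4 h it was 0.086. MYC averaged 32.5 ± 7.12 CPM against 111 ± 37.0 CPM in NT (SD, n = 12 each), a log2 change of -1.77, and the phosphatase DUSP1 14.9 ± 5.14 against 35.0 ± 19.7 CPM, a log2 change of -1.17. Scaled over all arms, the MYC mean was 32.7 CPM in the arm labelled ZFP36L1 and lower still in CNOT4, at 22.8 CPM. mRNAs with a site for the seed of the ZFP36L1 hairpin had a median of 0.18 and those without one 0.15, while for the NT hairpin seed these values were 0.24 and 0.13.

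Pooled label was compared next. Over 5875 genes above 5 CPM in each library, the share of T positions converted at 0 h was 1.91 ± 0.15% in libraries labelled ZFP36L1 and 1.79 ± 0.08% in NT (SD, n = 3 each). At 4 h it was 1.19 ± 0.02% and 1.06 ± 0.02%, with all 3 libraries labelled ZFP36L1 above all NT libraries (exact permutation test, two-sided p = 0.1, the smallest that 3 against 3 allows), and at 8 h 0.617 ± 0.015% and 0.644 ± 0.034%. The loss fitted over the chase was 13.2% per h against 12.1% per h in NT (exact permutation test within chase times, p = 0.0877). Over genes with under 1% multimapped reads it was 14.5% against 13.0% per h in NT (exact permutation test, p = 0.0235), and over genes above 100 CPM 8.18% against 7.96% per h in NT (p = 0.738).

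Half-lives from a first-order curve, with a fit R2 over 0.6, were obtained for 7971 genes in the arm labelled ZFP36L1 and for 5544 genes in NT. Over the 5211 genes with both, the medians were 3.65 h and 3.28 h, the median log2 ratio was 0.14, and 59.6% of genes had the longer value in the arm labelled ZFP36L1. The shift was 0.0037 with a straight line through the log rate and 0.036 over 20 CPM. Curves fitted to each replicate gave medians of 3.51, 3.25 and 3.89 h in the arm labelled ZFP36L1, and of 2.64, 2.68 and 2.54 h in NT, but over different genes (6348 to 7262 in the arm labelled ZFP36L1 and 3703 to 4137 in NT). Over the 1442 genes fitted in all 6, a set added after the data were seen, the medians were 3.10, 2.77 and 3.35 h in the arm labelled ZFP36L1 and 2.57, 2.85 and 2.58 h in NT, which overlapped (exact permutation test, two-sided p = 0.2). The pooled shift was 0.31 without replicate 2 and 0.08 without replicate 3. For 732 genes above 100 CPM the median log2 ratio was -0.02. It was 0.77 for 1182 genes whose NT half-life was under 2 h and -0.38 for 586 genes at 8 h or longer, bins that use the NT value that is also in the ratio. Half-lives under 1 h numbered 23 of 7971 in the arm labelled ZFP36L1 and 273 of 5544 in NT. A rate of 0 during the chase shortens a fitted half-life. Genes above 5 CPM without a conversion numbered 246 to 1787 in NT libraries, against 5 to 154 in libraries labelled ZFP36L1. The part of such zeros in the count of short half-lives was not tested. mRNAs with no heptamer had a median log2 ratio of 0.13, those with 1 of 0.14 and those with 2 or more of 0.17. The pooled label left at 8 h ran the other way, at 37.6% in libraries labelled ZFP36L1 and 40.2% in NT with no heptamer, 25.7% and 30.1% with 1, and 19.2% and 24.6% with 2 or more. Ribosomal protein mRNAs had medians of 13.2 h in the arm labelled ZFP36L1 and 11.5 h in NT (34 genes), both beyond the 8 h chase. Immediate early mRNAs had 1.40 h and 1.16 h (16 genes). The pooled label of these lists differed little. Ribosomal protein mRNAs kept 69.0% at 8 h in libraries labelled ZFP36L1 and 69.1% in NT (72 genes). Immediate early mRNAs kept 39.5% and 39.6% at 2 h, and 3.67% and 3.31% at 8 h (14 genes).

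At 0 h, 5 of 7018 genes (0.0712%) had a higher T>C rate in libraries labelled ZFP36L1 and 0 a lower one (edgeR on conversions with T coverage as offset; 893 at an unadjusted p under 0.05). RGS17, a regulator of G protein signalling, had 2.70, 2.59 and 2.27% in libraries labelled ZFP36L1 and 0.0367, 0.0171 and 0.0474% in NT (adjusted p = 0.0226). PALS2, a polarity scaffold, had 1.55, 2.19 and 1.95% against 0.0400, 0.0111 and 0.0332% in NT (adjusted p = 0.0353). Both were nearly unlabelled in NT, where RGS17 had 12 conversions in 668 reads and PALS2 17 in 1505. The other 3, WWC2, INTS6 and SLC7A6OS, share counted bases with another gene. Leaving out 1 library moved the count of higher genes between 0, without ZFP36L1 0 h replicate 3, and 96, without NT 0 h replicate 3. The count was also 0 over 20 CPM and 0 with a replicate block.

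Label loss differed for 11 of 7303 genes, 9 slower (0.123%) and 2 faster (0.0274%) in libraries labelled ZFP36L1, with 712 (9.75%) at an unadjusted p under 0.05. A gene that missed the threshold is not thereby shown to lose label at the same rate in both arms. RCHY1, an E3 ubiquitin ligase, lost label at 0.296 per h against 0.695 per h in NT (edgeR adjusted p = 0.00117), with 0.322, 0.228 and 0.285% left at 8 h against 0.0116, 0.00358 and 0.0116% in NT. ATG16L1, an autophagy factor, lost label at 0.312 against 1.05 per h in NT, the diacylglycerol kinase DGKH at 0.305 against 0.882, the RNA polymerase I subunit POLR1B at 0.412 against 0.763, and the histone methyltransferase SETD1B at 0.398 against 0.980. IER5, whose window holds 3 overlapping heptamers, lost label at 0.426 against 0.696 per h in NT (adjusted p = 0.0332). For all of these the NT libraries of 8 h were at or near 0, and without the 8 h libraries 0 genes were called. Without a whole replicate number 1 or 2 slower genes were left, and limma on the log rate called 0.

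SETD5, a SET domain protein of chromatin, lost label faster, at 0.395 per h against 0.211 per h in NT (adjusted p = 0.00133), with 0.129, 0.0859 and 0.113% left at 8 h against 0.469, 0.475 and 0.651% in NT. The other faster gene, EIF4A1, shares counted bases with another gene. The level of SETD5 was higher, at 369 ± 41.4 CPM against 144 ± 22.7 CPM in NT (SD, n = 12 each). Among genes that missed the threshold, TAGLN2 lost label at 0.111 per h against -0.003 per h in NT (adjusted p = 0.0592) and ATXN2L at 0.300 against 0.123 (adjusted p = 0.0525), and the level of both was lower. ZFP36L2 had 0.369 against 0.677 per h (adjusted p = 0.0795). For JUN (0.444 against 0.465 per h in NT), MCL1 (0.420 against 0.532) and FAM120A (0.131 against 0.108) the adjusted p were 0.918, 0.231 and 0.825.

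**Figure D5:**
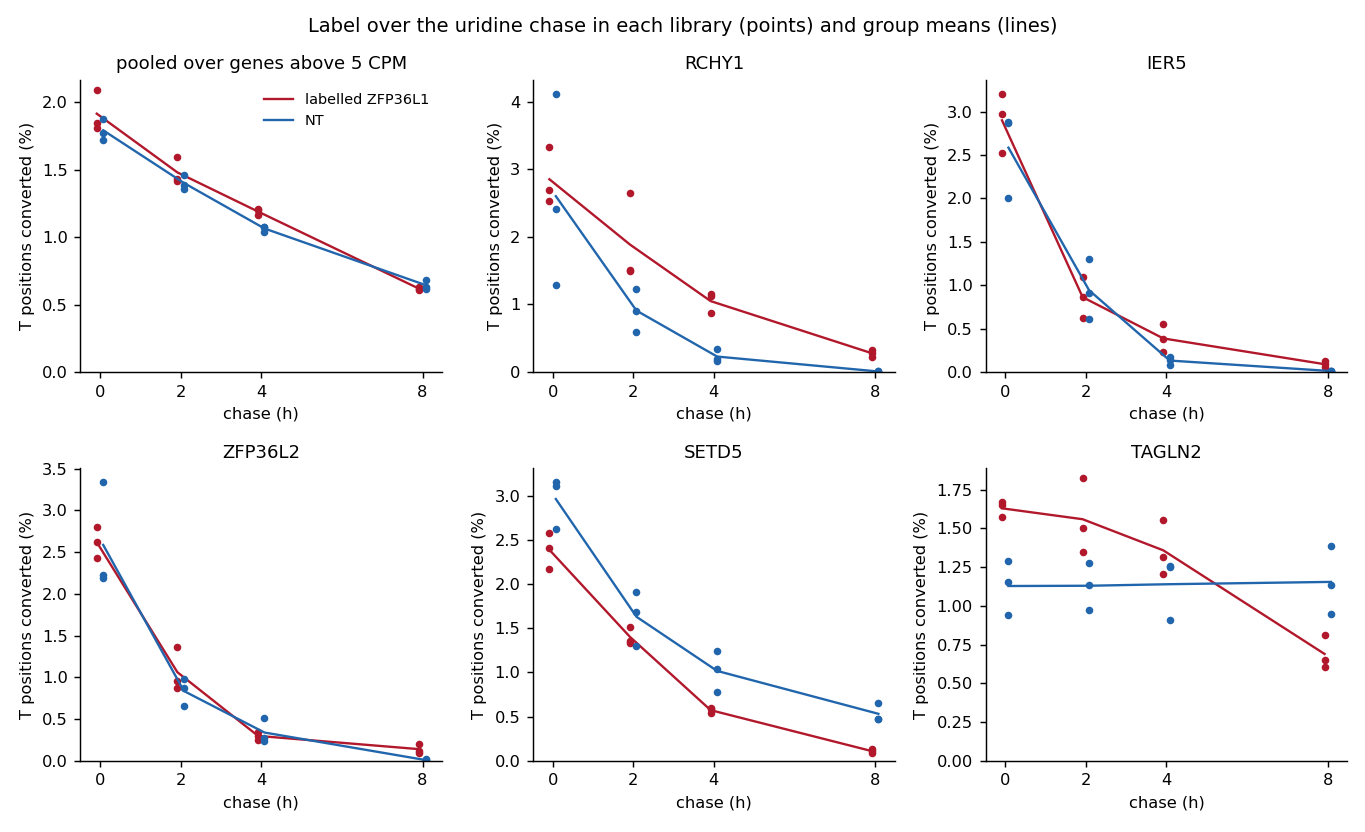
T positions converted (vertical axis, percent, from 0) against hours of chase, in each library (points) and as group means (lines), for libraries labelled ZFP36L1 and for NT, pooled over genes above 5 CPM and for 5 mRNAs. RCHY1 keeps more label at 4 and 8 h in libraries labelled ZFP36L1, and SETD5 keeps less. The TAGLN2 line falls in libraries labelled ZFP36L1 and not in NT, a difference in label loss that missed the threshold.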

How the data were processed

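RNA was measured by SLAM-seq with QuantSeq 3′ libraries. Per the file headers and the study's methods, the authors ran SlamDunk 0.4.3 on trimmed reads against hg38 and counted over 69079 3′ UTR intervals, keeping multimapped reads. The deposited counts are whole numbers of reads, multimapped reads, covered T positions and T>C conversions for each interval and library. The deposited CPM values were scaled by the authors to all mapped reads of a library. The deposited conversion rate is the fraction of covered T positions read as C, which the authors' counter gave and which equalled the ratio of the 2 counts. Replicates were not pooled.

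Counts were summed over the intervals of each of 19761 Ensembl genes. Of these, 19501 were named by GENCODE, and 2516 share counted bases with another gene. Levels were tested with edgeR 4.0.16 (TMM, filterByExpr, quasi-likelihood test, Benjamini-Hochberg), with a term for each arm and chase time, and a gene was called at an adjusted p under 0.05 and a fold over 1.2. Normalised CPM in the text are TMM-scaled. Label was tested with edgeR on conversions with log T coverage as offset. Half-lives were fitted to rates relative to 0 h where the deposited CPM was over 5 in at least 2 replicates at each time. Single values were tested by exact permutation within chase times (160000 relabellings). The rules were tested on simulated counts drawn with a single spread per gene for both arms. In these the label loss rule found few of the slower losses put in, and faster losses were not simulated. The level rule missed most of the smaller changes put in. 1 PHF7 library of 63659 reads was left out of the fit against the other 7 knockdowns, which held 83 libraries.

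Members, gene lists and tests were chosen with earlier results of these data known. Named genes were the 8 largest rises and 8 largest falls called against NT, and the same number called also against the other 7 knockdowns, among genes of at least 20 CPM with the same direction at 4 chase times, under 20% multimapped reads and no shared counted bases. To these came up to 4 members of each list, members with a described role, and the 4 smallest p in each direction for label. Genes called under all 3 references were chosen after their values were seen. A gene among these is not reported here. Alternatives were DESeq2 1.42.0, limma 3.58.1, other scaling and filters, other references, a replicate block and leaving out libraries. Nothing beyond the labels says how the biological replicates were grown, so p-values measure the spread between these libraries.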

Additional observations from a re-analysis of the deposited data

How the results depend on the processing

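Over 38 genes named for level and 1406 refits, 1360 kept direction and call, 27 kept the direction but lost the call (17 with CNOT4 as reference, 7 at 0 h alone) and 19 turned sign, all with a CNOT4 reference, which was chosen after the data were seen. Calls on label held less often: 7 genes named for label loss kept the call in 130 of 221 refits and lost it in 91 (26 of 31 for SETD1B, 23 of 32 for POLR1B), and 2 named for label at 0 h lost it in 10 of 16, with no change of sign. The cause was not tested for any of these.

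Genes higher against NT numbered 773 at 0 h alone, 244 with CNOT4 of 0 to 4 h as reference and 1686 with a terminal exon of 1000 bases or longer, and genes lower 898 and 159 in the first and second of these. Leaving out libraries against NT gave 2270 to 3089 higher and 1860 to 2413 lower, and CNOT4 as reference without CNOT4 2 h replicate 3 gave 681 and 551. ZFP36L1 mRNA changed by 0.60 at 0 h alone, by -1.04 against CNOT4 (-1.06 without CNOT4 2 h replicate 3), and by 0.59 to 1.02 against NT with libraries left out. Against CNOT4, all and without that library, the signs turned for ERCC6L2 (-0.022 and -0.12), BAX (0.84 and 0.61), MARCKSL1 (0.26 and 0.18), RRS1 (0.67 and 0.68), SLC7A5 (1.13 and 1.09), HOXB9 (0.13 and 0.27), AKT1S1 (0.22 and 0.050) and TMED2 (0.21 and 0.14). Without that library alone they turned for MAZ (0.0012), ABHD17A (-0.11) and ENSG00000258677 (-0.0041).

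Label at 0 h gave 0 higher genes over 20 CPM, 3 from reads called T>C and 0 with the replicate block, and 10 lower genes from reads called T>C. Leaving out libraries gave 0 to 96 higher and 0 to 3 lower. Slower label loss was called for 3 genes over 20 CPM, 0 without 8 h, 4 with the block and 0 by limma, and faster loss for 4, 0, 1 and 0, with ranges of 1 to 21 and 0 to 9 when libraries were left out. Differences by chase time numbered 0 to 4.

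The half-life shift was 0.0037 with a straight line and 0.081 to 0.31 without a replicate. The slope difference was -0.0169 under 1% multimapped reads and -0.0181 to -0.0099 without a replicate. The log2 ratio of pooled rates at 0 h was -0.024 above 100 CPM, -0.19 from reads called T>C, and 0.00015 to 0.17 without a replicate.

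List medians against CNOT4 were 0.41 for ribosomal proteins, -0.011 for G2/M, 0.044 for G1/S, 0.031 for the stress responses and 0.19 for heat shock. G2/M was -0.17 at 0 h alone, and G1/S -0.0093 with the replicate block. Heat shock was -0.45 at 0 h alone, -0.46 against NT of 0 to 4 h, -0.49 with multimapped reads subtracted and -0.47 above 5 CPM. Above 5 CPM, immediate early mRNAs were at -0.79 and ZFP36 targets at -0.24. With libraries left out, medians ran from 1.16 to 1.25 for ribosomal proteins, 0.31 to 0.40 for the respiratory chain, -0.33 to -0.26 for G2/M, -0.19 to -0.041 for G1/S, -0.45 to -0.31 for the stress responses, -0.48 to -0.26 for heat shock, -0.58 to -0.26 for immediate early mRNAs, 0.033 to 0.48 for ZFP36 targets and -0.29 to -0.032 for cholesterol synthesis.

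Same-numbered libraries of the 2 arms deviated with correlations of -0.02 to 0.08 over 12 pairs, 5 of them best with their own number, so the numbers were not taken to pair the samples. With the replicate block 3046 genes were higher and 2339 lower against NT. Genes above 5 CPM without a conversion numbered 5 to 154 in libraries labelled ZFP36L1 and 246 to 1787 in NT, whose libraries held more reads (4555633 to 12048936 in libraries labelled ZFP36L1 and 8206060 to 13359455 in NT).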
